A study of Zea mays with 12 samples.

Results

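In the table of counts from maize seedling shoots, 31 loci that carry only an identifier given by the assembler StringTie (assembled loci) were lower in mop1-1 than in WT. They were chosen from 9774 assembled loci, which stand among 38444 features in all. The choice used CPM, in which the count of a locus is scaled by the sum of its library. A locus was taken when its WT mean over 6 libraries was at least 1 CPM, its mop1-1 mean over 6 libraries was at most 0.67 times the WT mean, and the highest mop1-1 library was below the lowest WT library. Because these values chose the loci, the difference between genotypes over all 12 libraries is described here and not tested. Neither a name, a position nor a sequence of these loci was used here, so their products are not described.

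The 4 groups were mop1-1 ABA, mop1-1 MS, WT ABA and WT MS, with 3 libraries each, which the study calls biological replicates. All came from shoots of V3 seedlings, a stage with only a few leaves, whose roots had stood for 1 h in Murashige and Skoog medium (MS) with 50 µM abscisic acid (ABA) or without it. The mop1-1 seedlings were homozygous for the mutant allele, introgressed into the inbred B73, and the WT seedlings were homozygous Mop1 siblings from the same selfed heterozygous ear. The comparisons follow the names of the study, with Group A for mop1-1 ABA over mop1-1 MS, Group B for WT ABA over WT MS, Group C for mop1-1 ABA over WT ABA, and Group D for mop1-1 MS over WT MS.

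MOP1 is an RNA-dependent RNA polymerase of maize. It makes double-stranded RNA from which small interfering RNAs are cut, and these guide DNA methylation to matching sequences, a process called RNA-directed DNA methylation (RdDM) that is known mainly for silencing transposons and genes near them. ABA is the hormone that plants raise under drought, and it changes the transcription of many genes. An assembled locus is a stretch of transcription that was put together from the reads themselves, so it can be a non-coding RNA, a transposon or a gene model that differs from the annotation, and the identifier does not say which.

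The libraries held 38295994 to 65574775 counts, with the smallest in mop1-1 ABA, and the mean correlation of a library with the others of its group was 0.941 to 0.960. WT MS replicate 3 stood apart in its counts, with a chi-square per degree of freedom of 186 and 149 against the other libraries of its group, beside 30.6 to 86.8 for all other pairs of replicates. The numbers of loci chosen and called in each comparison are given below with and without it. Other values that rest on it, such as those of single loci, are given only with it unless said. Of the markers of shoot and root, 3 could be joined to rows of the table. The mean of rca1 (Rubisco activase) was 442 CPM in mop1-1 and 546 CPM in WT, that of psad1 (a subunit of photosystem I) was 362 CPM in mop1-1 and 395 CPM in WT, and that of tip2-3 (an aquaporin of roots) was 0.196 CPM in mop1-1 and 0.130 CPM in WT. The shoot markers were thus high and the root marker near 0 in both genotypes. The part of these marker differences in the results below was not tested. None of the RdDM pathway genes on the list could be joined to a row, so they and the mop1 gene are not analysed here.

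The reduced loci were few. They made up 0.555% of the 5582 assembled loci with a WT mean of at least 1 CPM, and the same rule took 89 of 17806 annotated genes (0.4998%). With the genotypes exchanged, the rule took 224 of 5850 assembled loci (3.83%) and 231 of 18014 annotated genes (1.28%) as raised in mop1-1. The criterion that the libraries do not overlap decided the number, since 229 assembled loci met the other criteria and 198 of these overlapped. Leaving out WT MS replicate 3 took the number of loci to 63, of which 30 were among the 31. Over all features tested, 0.682% had their highest mop1-1 library below their lowest WT library.

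The losses fell into a pair of classes. In 8 loci, every mop1-1 library had 0 counts, and in the other 23, every mop1-1 library had counts. The 31 loci together summed to 166 ± 7.93 CPM in mop1-1 ABA and 153 ± 3.97 CPM in mop1-1 MS, against 421 ± 33.6 CPM in WT ABA and 421 ± 21.5 CPM in WT MS (SD, n = 3 each). Counts were not divided by the length of a locus, so the order of loci by CPM is not an order of transcript level. In bulk tissue, fewer cells that express a locus and less RNA per cell cannot be told apart. Reads of both genotypes were mapped to the B73 genome. Whether the sequence of each locus is present and unchanged in the mop1-1 seedlings was not tested.

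**Figure D1:**
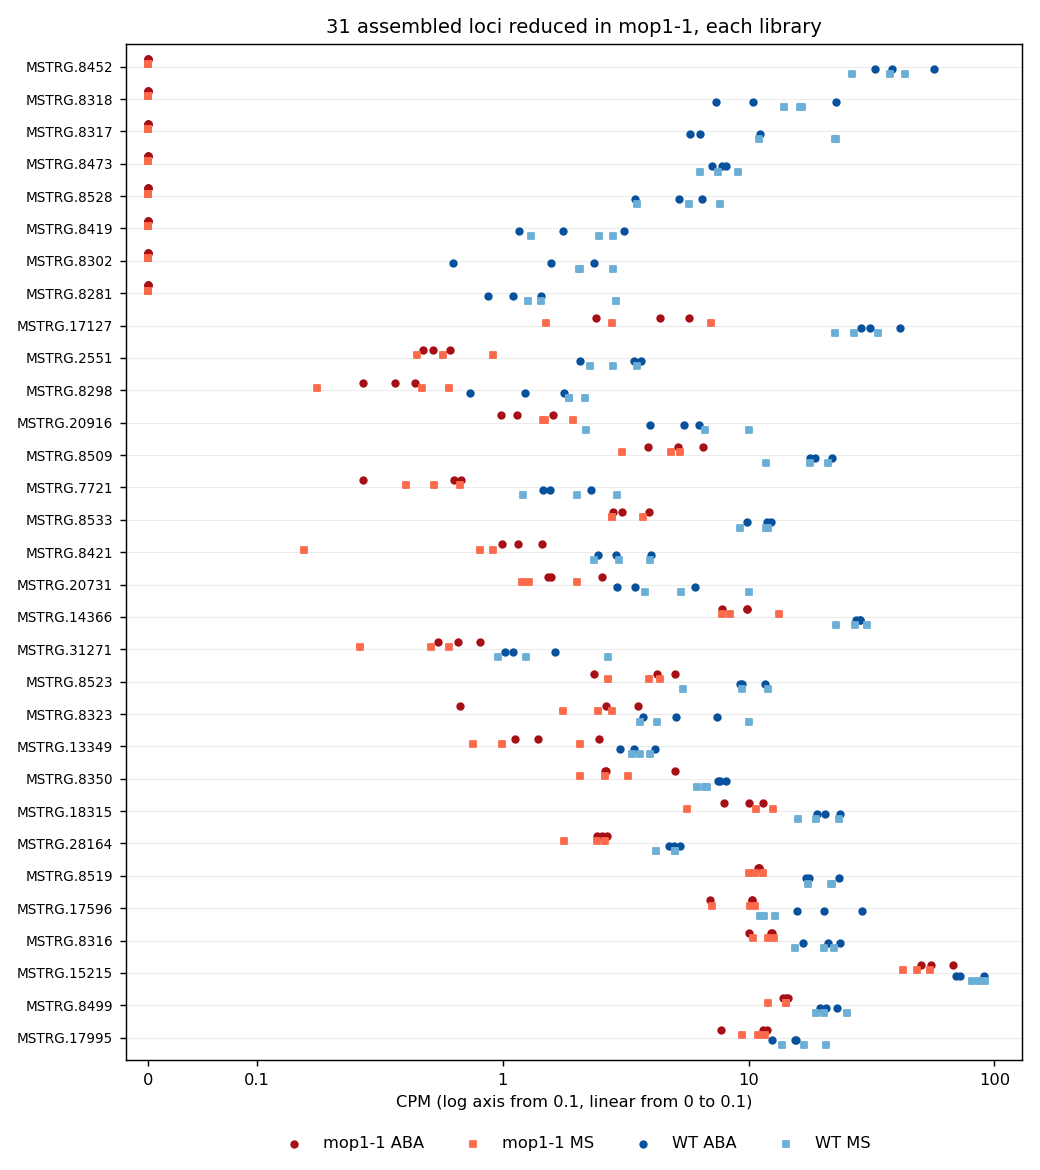
CPM of each of the 31 loci in every library, on an axis that is logarithmic from 0.1 CPM and linear between 0 and 0.1 CPM. Each row is a locus, ordered by its mop1-1 mean relative to its WT mean, and each point is 1 of 3 libraries of mop1-1 ABA, mop1-1 MS, WT ABA or WT MS. The top 8 loci stand at 0 in every mop1-1 library, and in each row the mop1-1 points lie left of the WT points, as the choice of loci requires.

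The 8 loci at 0 had WT means of 1.498 to 39.3 CPM. MSTRG.8452 had 0 CPM in all mop1-1 libraries, against 32.7, 38.4 and 56.9 CPM in WT ABA and 26.4, 37.7 and 43.4 CPM in WT MS. The 6 WT libraries thus stood at 39.3 ± 10.4 CPM (SD, n = 6), with the highest in WT ABA and the lowest in WT MS. A count of 0 allows up to 3 counts over the 3 libraries of a group, which is 0.0195 CPM in mop1-1 ABA and 0.0166 CPM in mop1-1 MS. With that floor, MSTRG.8452 was at least 2193-fold lower in Group C and at least 2163-fold lower in Group D. These bounds cover counting error only.

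Next to each other in number, MSTRG.8317 and MSTRG.8318 were also at 0 in all mop1-1 libraries. MSTRG.8318 had 7.34, 10.4 and 22.7 CPM in WT ABA and 16.4, 14.0 and 16.2 CPM in WT MS. MSTRG.8317 had 6.36, 5.79 and 11.2 CPM in WT ABA and 11.1, 22.6 and 22.7 CPM in WT MS, and was the most variable of the 31 over the WT libraries, with a coefficient of variation of 0.572. The bounds in Groups C and D were at least 693-fold and 937-fold lower for MSTRG.8318, and at least 399-fold and 1133-fold lower for MSTRG.8317. The locus numbered just before them, MSTRG.8316, was not lost. It had 12.4, 10.001 and 12.4 CPM in mop1-1 ABA and 12.7, 10.4 and 11.97 CPM in mop1-1 MS, against 21.1, 16.7 and 23.6 CPM in WT ABA and 15.4, 20.2 and 22.2 CPM in WT MS, which is 58.6% of the WT mean.

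MSTRG.8473 had 0 CPM in mop1-1 and an even level in WT, with 7.11, 7.78 and 8.11 CPM in WT ABA and 6.35, 9.01 and 7.49 CPM in WT MS. MSTRG.8528, likewise at 0 in mop1-1, had 3.44, 5.22 and 6.46 CPM in WT ABA and 3.51, 5.72 and 7.64 CPM in WT MS. The first library was the lowest in both WT groups for MSTRG.8528. The other 3 loci at 0 were nearest to the threshold of 1 CPM in WT, at 2.0997 ± 0.811 CPM for MSTRG.8419, 1.91 ± 0.748 CPM for MSTRG.8302 and 1.498 ± 0.716 CPM for MSTRG.8281 (SD, n = 6 each), and their bounds in the 2 comparisons lay between at least 58.2-fold and at least 139-fold lower. Even so, the smallest count of any of the 8 loci in a WT library was 41. The sum over the 8 loci was 60.8, 70.8 and 112 CPM in WT ABA and 68.5, 94.8 and 106 CPM in WT MS, with the lowest value in WT ABA replicate 1 and the highest in WT ABA replicate 3.

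The 23 loci with counts kept between 12.9% and 66.6% of the WT mean, with a median of 39.6%. Of these, 8 kept under 30%, 9 kept 30% to under 50%, and 6 kept 50% or more. MSTRG.17127 kept the least (12.9%). It had 5.74, 4.36 and 2.39 CPM in mop1-1 ABA and 7.05, 1.502 and 2.79 CPM in mop1-1 MS, against 31.3, 41.4 and 28.7 CPM in WT ABA and 33.5, 22.6 and 26.8 CPM in WT MS. Its lowest WT library was 3.20 times its highest mop1-1 library, the widest such gap among the 23.

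MSTRG.14366 kept 34.6%, with 7.82, 9.82 and 9.86 CPM in mop1-1 ABA and 8.37, 7.78 and 13.3 CPM in mop1-1 MS, against 28.5, 27.3 and 28.4 CPM in WT ABA and 27.0, 30.3 and 22.7 CPM in WT MS. MSTRG.8509 kept 26.4%, with 6.495, 5.17 and 3.89 CPM in mop1-1 ABA and 3.04, 4.85 and 5.28 CPM in mop1-1 MS, against 17.8, 18.7 and 21.9 CPM in WT ABA and 11.8, 17.7 and 21.1 CPM in WT MS. The treatments overlapped within each genotype in these loci, and the genotypes did not. MSTRG.8533 kept 28.5%, with 3.94, 2.82 and 3.04 CPM in mop1-1 ABA and 2.77, 2.79 and 3.73 CPM in mop1-1 MS, against 9.80, 11.9 and 12.3 CPM in WT ABA and 9.24, 12.04 and 11.8 CPM in WT MS.

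The evenest locus over the WT libraries was MSTRG.28164, with a coefficient of variation of 0.0753, against a median of 0.234 over the 31 loci and 0.195 over all assembled loci of at least 1 CPM in WT. It had 2.66, 2.53 and 2.42 CPM in mop1-1 ABA and 2.42, 1.77 and 2.59 CPM in mop1-1 MS, against 4.73, 5.26 and 4.97 CPM in WT ABA and 4.20, 5.01 and 4.99995 CPM in WT MS. At the other end, MSTRG.20731 (coefficient of variation of 0.497) had 1.57, 2.53 and 1.52 CPM in mop1-1 ABA and 1.19, 1.998 and 1.28 CPM in mop1-1 MS, against 6.05, 3.46 and 2.93 CPM in WT ABA and 10.04, 5.33 and 3.80 CPM in WT MS. In this locus the lowest WT library was 1.16 times the highest mop1-1 library.

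MSTRG.15215 kept 64.8% of WT. It had 67.8, 55.4 and 50.2 CPM in mop1-1 ABA and 48.6, 54.5 and 42.4 CPM in mop1-1 MS, against 69.9, 72.3 and 90.8 CPM in WT ABA and 86.3, 91.4 and 81.2 CPM in WT MS. The first mop1-1 ABA library came within 1.03 times of the first WT ABA library. MSTRG.8499 and MSTRG.8519, at 65.0% and 54.7% of WT, were evener, with 13.8 ± 0.938 CPM in mop1-1 against 21.2 ± 2.37 CPM in WT for MSTRG.8499, and 10.8 ± 0.471 CPM in mop1-1 against 19.8 ± 2.73 CPM in WT for MSTRG.8519 (SD, n = 6 each). MSTRG.18315 kept 48.2%, at 9.72 ± 2.55 CPM in mop1-1 against 20.2 ± 2.96 CPM in WT (SD, n = 6 each).

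Several loci stood close to a criterion. The 4 nearest to the ratio from inside were MSTRG.17995 (66.6% of WT), MSTRG.8499 (65.0%), MSTRG.15215 (64.8%) and MSTRG.8316 (58.6%), and the 4 nearest from outside were MSTRG.26118 (67.2%), MSTRG.440 (67.9%), MSTRG.25665 (70.0%) and MSTRG.27161 (72.5%). In 8 of the 31 loci the lowest WT library was under 1.2 times the highest mop1-1 library, and it was at least 2 times that library in 3 of the 23 with counts.

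By the quasi-likelihood (QL) test of edgeR, where a call needed an adjusted p no higher than 0.05 and a change of 0.95 or more on the log2 scale, 18 of the 31 loci were called lower in Group C and 17 in Group D. Over all 26401 features tested, 0.424% were called lower in Group C and 0.216% in Group D. Since the choice used these contrasts, the counts only describe the loci. All 31 passed the filter on low counts, but 10 had fewer than 3 mop1-1 libraries at 0.58 CPM and so passed it only with WT. These were the 8 at 0, MSTRG.2551 and MSTRG.8298. Without WT MS replicate 3, 19 loci were called lower in Group C and 20 in Group D. The features called lower then numbered 259 and 234 of 26267, against 112 and 57 of 26401 with it. For the 23 with counts, the median log2 fold change was -1.33 in Group C (range -3.14 to -0.53) and -1.53 in Group D (range -2.96 to -0.42). With the 8 at their bounds, the medians over the 31 were -1.72 and -1.99, beside 0.01 and 0.00 over all features tested.

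The identifier number was the one property of these loci that the choice did not use. Of the 31 loci, 18 (58.1%) had numbers from 8281 to 8533, while the assembled loci as a whole ran from 3 to 32244. All 8 loci at 0 were in this run of 253 numbers. The run held 49 loci of at least 1 CPM in WT, of which 36.7% were among the 31, beside 0.235% of the 5533 such loci outside it. The ends of the run were set after the values were seen, so this is a description with no test.

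Loci in the run were not lowered throughout. Of the 49, 22 had a mop1-1 mean of at most 0.67 times the WT mean, 26 lay between 0.67 and 1.5 times, and 1 was at 1.5 times or more, with a median of 83.3% of WT, beside 108% for the loci outside. Another 5 rows of the run were raised in mop1-1 by the exchanged rule. The 13 reduced loci outside the run kept 12.9% to 66.6% of WT, with a median of 39.3%, and were scattered, with no more than 3 in any other block of 1000 numbers. Among all assembled loci and annotated genes with at least 1 CPM in WT, 8 and 4 had 0 counts in every mop1-1 library. The table gives no position for an assembled locus, so whether loci with neighbouring numbers lie side by side, or near mop1, is not known here.

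**Figure D2:**
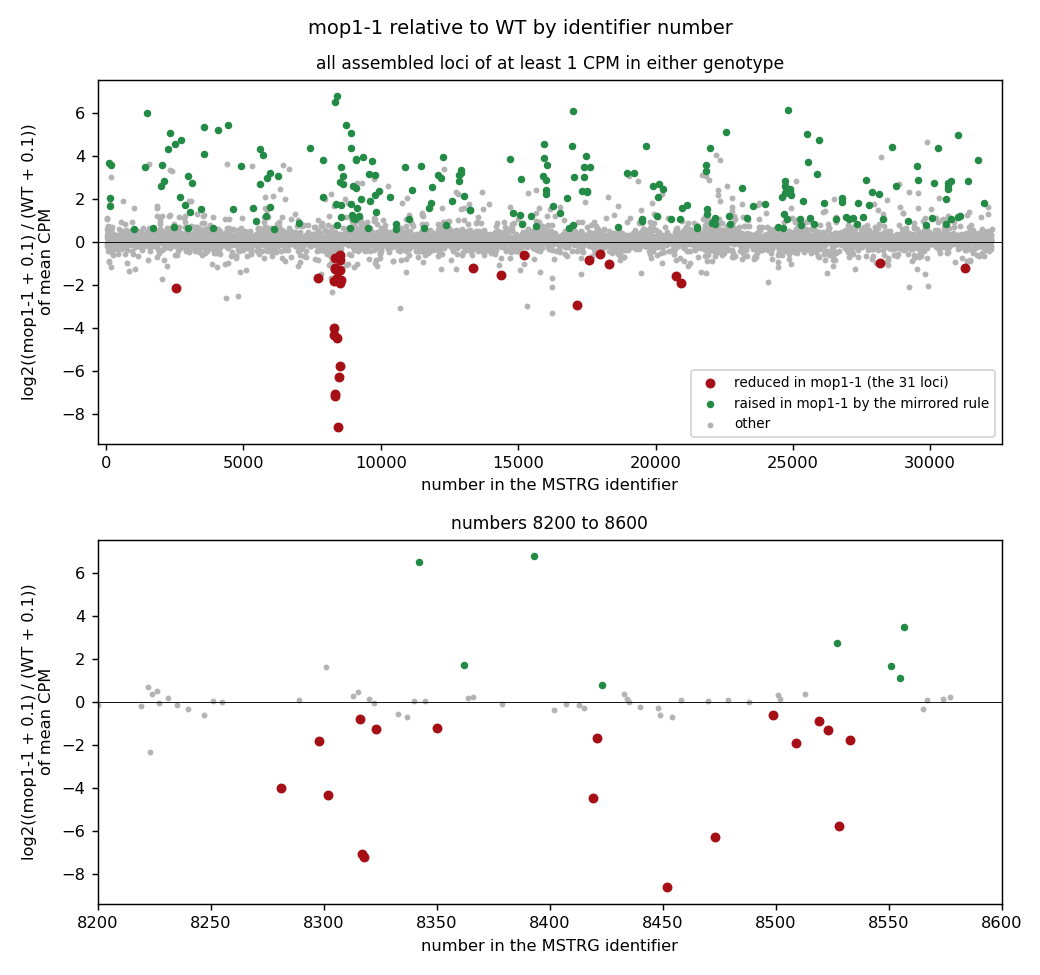
log2 ratio of the mop1-1 mean to the WT mean, with 0.1 CPM added to each, against the number in the identifier, for all assembled loci of at least 1 CPM in either genotype (top) and for the numbers around the run (bottom). Red points are the 31 reduced loci, green points those raised in mop1-1 by the exchanged rule, and grey points the rest. All 8 loci at 0 in mop1-1, the lowest red points, stand between numbers 8281 and 8533, among grey points near 0.

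To measure the loss in libraries that had no part in the choice, the same rule was applied to the 6 MS libraries alone, and the loci it took were tested in the 6 ABA libraries alone. It took 118 loci, of which 112 passed the filter in the ABA libraries, and 22 of these were called lower in mop1-1 ABA than in WT ABA (edgeR QL test), or 19.6% beside 1.39% of all features tested. Of the 22, 19 are among the 31 loci, and the others were MSTRG.28446, MSTRG.28444 and MSTRG.27872, named after their values were seen, at -1.01 ± 0.13, -1.07 ± 0.20 and -1.17 ± 0.26 (log2 fold change ± SE). The 31 were chosen with these ABA libraries too, so their number among the 22 supports nothing. A single locus was called higher. At an unadjusted p under 0.05, 53 were lower (47.3%, beside 9.73% of all features), and 45 did not overlap between the genotypes in the ABA libraries (40.2%, beside 8.49% of all features). The median log2 fold change of the 112 was -0.59 (-0.56 without the 8 loci at 0), and 99 were below 0. These values include loci that passed the filter only with WT ABA, and were not split by this. Of the 112, 25 had fewer than 3 mop1-1 ABA libraries at 0.58 CPM, so that they passed the filter only with WT ABA, and 9 of these were called, the 8 loci at 0 and MSTRG.2551. Of the 87 that passed without WT ABA, 13 were called. The share called of all features that passed in this way was not worked out, so these counts are a description. Choosing the loci without WT MS replicate 3, an alternative added after seeing the data, gave 211 loci, of which 203 were tested and 46 called lower. Leaving out WT ABA replicate 1, 2 or 3 took the number called to 9, 10 and 10. Of all features, 213, 201 and 268 were then called lower, against 352 in the main fit. With a WT ABA library left out, the 8 loci at 0 could not pass the filter and were not tested. Part of the fall was thus fixed in advance.

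In the other direction, 198 loci were chosen in the 6 ABA libraries, 193 were tested in the 6 MS libraries, and 12 were called lower in mop1-1 MS than in WT MS (6.22%, beside 0.119% of all features tested). All 12 are among the 31 loci, which were chosen with these MS libraries too, so this supports nothing. None was called higher. At an unadjusted p under 0.05, 44 were lower (22.8%, beside 3.80% of all features), and 40 did not overlap in the MS libraries (20.7%, beside 3.60%). The median log2 fold change was -0.58 (-0.55 without the 8 loci at 0), with 167 of the 193 below 0. These values include loci that passed the filter only with WT MS, and were not split by this. Of the 193, 40 had fewer than 3 mop1-1 MS libraries at 0.58 CPM and passed only with WT MS, and the 8 called among these were the loci at 0. Of the 153 that passed without WT MS, 4 were called. The share called of all features that passed in this way was likewise not worked out. The count moved with the setting, and so did the number called lower of all features, which was 30 in the main fit. With DESeq2, 29 of these loci were called, beside 168 of all features. The count was 26 beside 137 with the edgeR exact test, and 4 beside 12 with the replicate number as a block. Without mop1-1 MS replicate 2 or 3 it was 7, beside 19 and 16 of all features. Without WT MS replicate 2 it was 1 beside 9, and without WT MS replicate 1 it was 3 beside 15. Without WT MS replicate 3 it was 16 beside 90, with 4 of these 16 among the 31. With a WT MS library left out, the 8 loci at 0 could not pass the filter and were not tested, so part of the change was fixed in advance.

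Of the 36 loci that both choices took, 11 were called in both directions, and all 11 are among the 31, which were chosen with the same libraries. These are the 8 at 0 with MSTRG.8509, MSTRG.8533 and MSTRG.14366. The 8 at 0 passed the filter only with WT in both tests, and the others passed it without WT. How many of all features were called in both directions was not worked out. MSTRG.8509 had a log2 fold change of -2.01 ± 0.20 (SE) in the ABA libraries (adjusted p = 0.00112) and -1.99 ± 0.26 in the MS libraries (adjusted p = 0.0193). MSTRG.8533 had -1.896 ± 0.20 in the ABA libraries (adjusted p = 0.00160) and -1.898 ± 0.20 in the MS libraries (adjusted p = 0.00612). MSTRG.14366, the one with a number outside the run, had -1.72 ± 0.14 in the ABA libraries (adjusted p = 0.000470) and -1.53 ± 0.23 in the MS libraries (adjusted p = 0.0382). These p-values are from the edgeR QL test with Benjamini and Hochberg adjustment over all features tested.

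Of the other 20 loci, 9 were called in one direction and 11 in neither, which includes loci that one of the choices did not take. MSTRG.17127 was called in the ABA libraries, at -3.14 ± 0.31 (SE, adjusted p = 0.00111, edgeR QL test), but not in the MS libraries, at -2.96 ± 0.54 (adjusted p = 0.0823). MSTRG.8519 was called in the MS libraries, at -0.99 ± 0.14 (adjusted p = 0.0253, edgeR QL test), while in the ABA libraries it was at -0.93 ± 0.17 (adjusted p = 0.0186), under the fold threshold. MSTRG.17596 was chosen in the ABA libraries and was at -0.43 ± 0.22 in the MS libraries (adjusted p = 0.723, edgeR QL test). Among loci that passed the filter without WT, 5 of 9 with numbers in the run and 8 of 78 outside it were called in the ABA libraries, and 3 of 11 in the run and 1 of 142 outside it in the MS libraries. The run was set from these same libraries, so the difference between inside and outside is a description. No share of all features on the same terms was worked out.

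**Figure D3:**
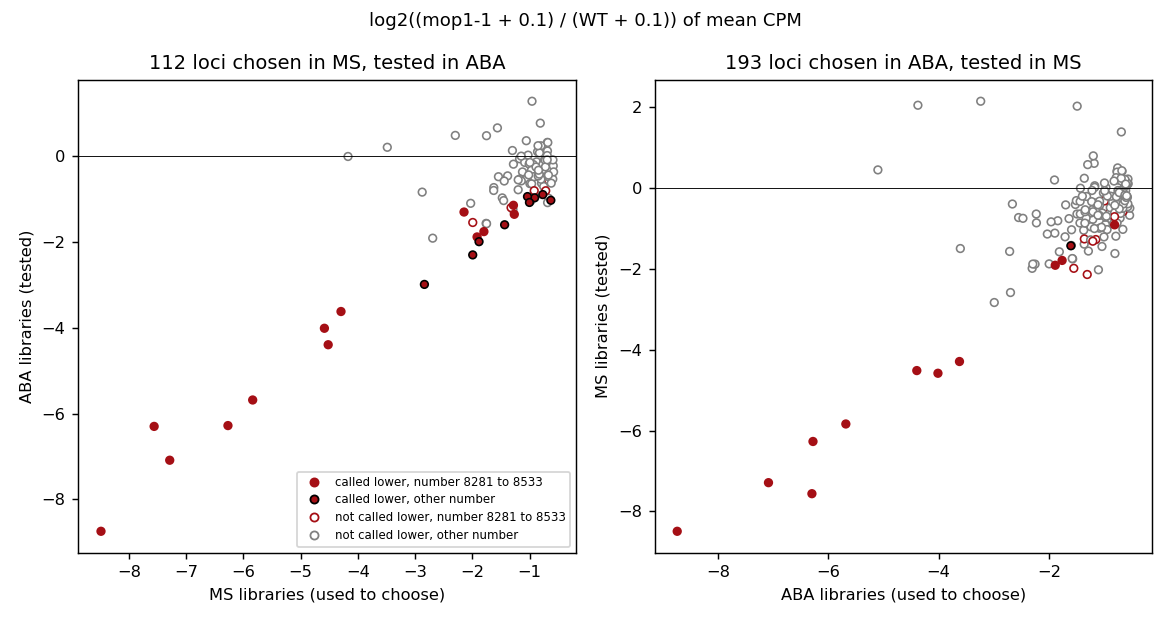
log2 ratio of the mop1-1 mean to the WT mean, with 0.1 CPM added to each, in the libraries that chose a locus (x axis) and in those of the other treatment, which tested it (y axis), for the 112 loci chosen in MS and tested in ABA (left) and the 193 chosen in ABA and tested in MS (right). Filled points were called lower by the edgeR QL test, and red edges mark numbers from 8281 to 8533. The 8 loci at 0 in mop1-1 form the group at the lower left of each panel, and most open points lie close to or below 0.

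Whether 1 h of ABA moved these loci was tested next. The choice pooled ABA and MS within a genotype. It also asked that the genotypes not overlap, which depends on the spread within a genotype. A share below that of all features is therefore not read as a result. In mop1-1 (Group A), none of the 23 loci with counts was called by the edgeR QL test, by the edgeR exact test or by DESeq2 (which called 0.0492% of all features tested), and 0 had an unadjusted p under 0.05, beside 3.83% of all features tested. The QL test called 0 of the 26401 features in Group A and 0 in Group B, so the loci are not set apart by this. The study itself lists changed genes in both groups with edgeR at these thresholds, without naming the test within edgeR. The 0 calls are thus those of the QL test used here. The median log2 fold change of the 23 in Group A was 0.00 (range -0.47 to 0.88), with 12 above 0 and 11 below, and the standard errors ran from 0.13 to 0.54. The highest was MSTRG.8421, with 1.44, 0.992 and 1.15 CPM in mop1-1 ABA against 0.908, 0.155 and 0.806 CPM in mop1-1 MS. The treatments did not overlap in this locus, at a log2 fold change of 0.88 ± 0.50 (SE) and an unadjusted p of 0.0993 (adjusted p = 1). MSTRG.31271, the next highest, was at 0.48 ± 0.49 (SE, adjusted p = 1). MSTRG.8421 was the one locus of the 23 with no overlap between treatments in mop1-1, beside 11.4% of all features tested.

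In WT (Group B), none of the 31 loci was called by the edgeR QL test or the edgeR exact test, 2 had an unadjusted p under 0.05, beside 7.15% of all features tested, and DESeq2 called 1, beside 0.258% of all features tested. The median log2 fold change was -0.08 (range -1.30 to 0.84), with 12 above 0 and 19 below. Without WT MS replicate 3, 15 were above 0 and 5 had an unadjusted p under 0.05 (edgeR QL test), beside 1955 of 26267 features tested. MSTRG.8317 was the lowest, at -1.30 ± 0.32 (SE). Its values given above overlap, with the highest WT ABA library just over the lowest WT MS library. Its adjusted p was 0.522 by the QL test, 0.0472 by DESeq2 and 0.113 by the edgeR exact test.

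MSTRG.17596 was the highest in Group B. It had 28.9, 20.3 and 15.8 CPM in WT ABA against 12.8, 11.1 and 11.5 CPM in WT MS, with no overlap, and a log2 fold change of 0.84 ± 0.26 (SE, unadjusted p = 0.00709). Its adjusted p was 0.542 by the QL test, 0.187 by DESeq2 and 0.290 by the edgeR exact test. In mop1-1 the same locus had 6.97, 10.3 and 10.4 CPM with ABA against 7.06, 10.7 and 10.2 CPM with MS, which overlap fully. The effect of ABA was 0.92 lower in mop1-1 than in WT on the log2 scale (interaction of -0.92 ± 0.37, SE), with an unadjusted p of 0.0273 and an adjusted p of 1.00 by the QL test.

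In WT the treatments did not overlap in 3 of the 31 loci, MSTRG.17596 and 2 more, beside 11% of all features tested. MSTRG.8350 was higher, with 8.12, 7.62 and 7.48 CPM in WT ABA against 6.76, 6.67 and 6.17 CPM in WT MS, at a log2 fold change of 0.21 ± 0.27 (SE, adjusted p = 0.919, edgeR QL test). MSTRG.8298 was lower, with 1.23, 0.732 and 1.77 CPM in WT ABA against 1.85, 1.86 and 2.16 CPM in WT MS, at -0.70 ± 0.49 (SE, adjusted p = 0.818, edgeR QL test). Neither difference passed the test.

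**Figure D4:**
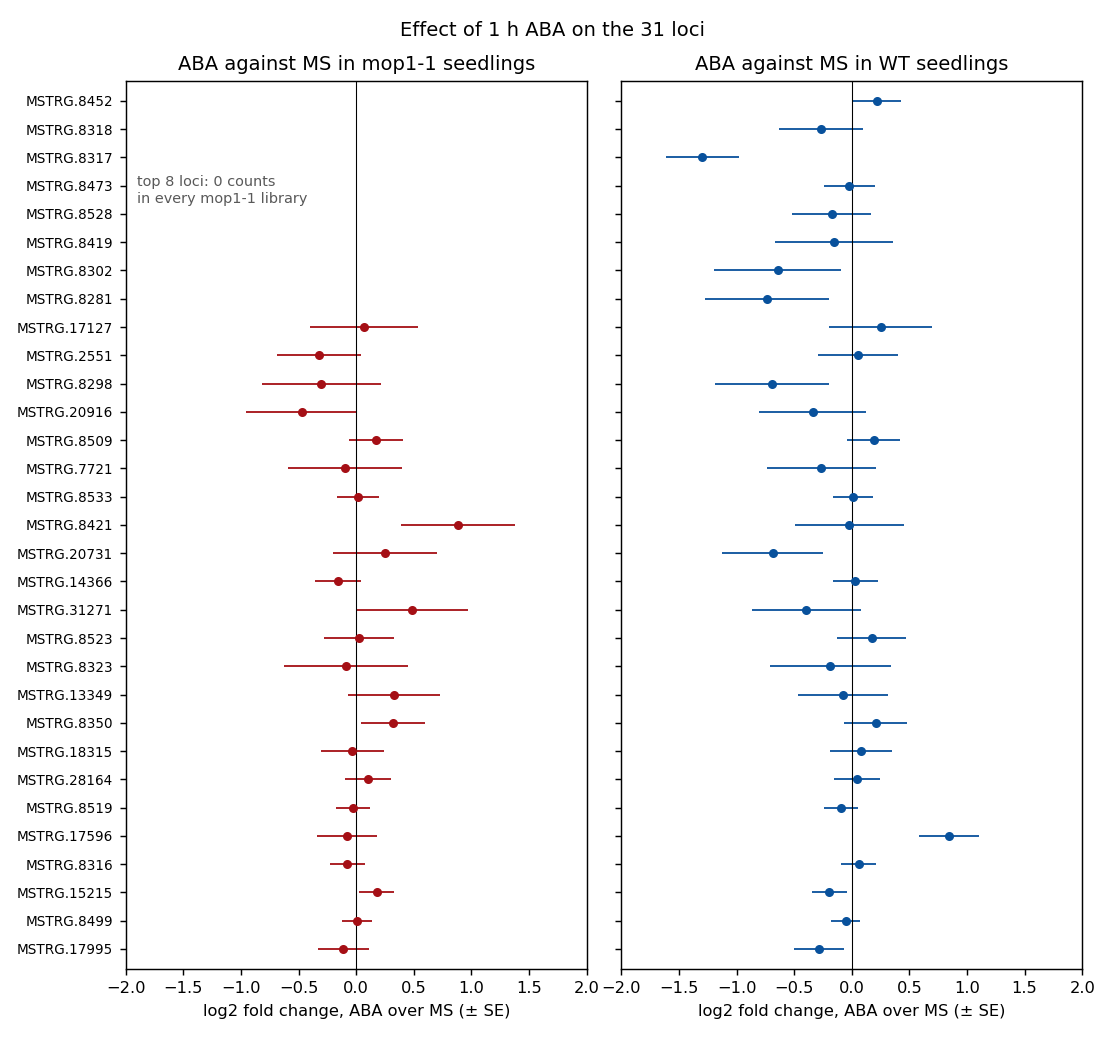
log2 fold change of ABA over MS in mop1-1 (left) and in WT (right), with bars of 1 SE from the edgeR QL fit, for the 31 loci in the order of the plot of CPM by library. The 8 loci at 0 have no value in mop1-1. Most bars cross 0, and the points farthest from it are MSTRG.8421 at 0.88 in mop1-1, and MSTRG.8317 at -1.30 and MSTRG.17596 at 0.84 in WT.

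Whether the effect of ABA differed between the genotypes was tested for the 23 loci with counts. None was called by the edgeR QL test, which called 0 of all 26401 features tested, or by DESeq2, which called 27 of them. The loci are thus not set apart by this. By the QL test 1 locus, MSTRG.17596, had an unadjusted p under 0.05, beside 4.24% of all features tested. The median interaction was 0.06 on the log2 scale (range -0.92 to 0.94), with 14 above 0 and 9 below. The precision differed between loci. MSTRG.8499 had an interaction of 0.06 ± 0.18 (SE) and MSTRG.8533 one of 0.00 ± 0.25, whereas MSTRG.20731 had 0.94 ± 0.63 and MSTRG.8421 had 0.91 ± 0.68, so that differences of such a size were not detectable at this spread in these loci.

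The features most like the 3 loci with the highest WT CPM were sought by the Pearson correlation of log2(CPM + 0.5) over the 12 libraries, which share the difference between genotypes. For MSTRG.8452 they were the annotated gene Zm00001d003128 (r = 0.999), at 0 CPM in mop1-1 and 14.5 CPM in WT, and MSTRG.8473 (r = 0.998), also at 0. For MSTRG.17127 they were Zm00001d035336 (r = 0.981), with means of 0.417 CPM in mop1-1 and 3.19 CPM in WT, and Zm00001d003155 (r = 0.958), with 7.94 CPM in mop1-1 and 33.9 CPM in WT. For MSTRG.15215 they were Zm00001d044478 (r = 0.921), with 44.6 CPM in mop1-1 and 66.2 CPM in WT, and Zm00001d019547 (r = 0.917), with 50.5 CPM in mop1-1 and 59.6 CPM in WT.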

How the data were processed

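RNA of 12 libraries (polyA, paired reads of 150 bp) was analysed from the raw counts per feature that the authors deposited. The authors trimmed the reads, used HISAT2 2.2.1 to map them to version 4 of the B73 genome and StringTie 2.1.4 for assembly and counting, after quality control with fastp 0.21.0. StringTie derives counts from coverage, so they are not sums of single reads, and a locus that overlaps another may share its reads.

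Features of at least 0.58 CPM in at least 3 libraries were normalized by TMM and fitted with 4 group means by the QL test of edgeR 4.0.16 (R 4.3.3), with Benjamini and Hochberg adjustment over all features tested. The level of 0.58 CPM and both thresholds are those the study names, and the minimum of 3 libraries was set here. SE is the log2 fold change divided by the square root of F. The common biological coefficient of variation was 0.302. Replicates differed by a chi-square per degree of freedom of 30.6 to 186, so no library was a copy of another. The loci and gene lists were chosen with earlier results of these data known. Loci were named by fixed ranks (WT CPM, ratio, p in Groups A and B and the interaction, coefficient of variation, closest numbers), besides those called in both directions. MSTRG.8533 and MSTRG.8509 are such loci, named after their values were seen. The RefSeq table of the NAM-5.0 assembly gave names only. Alternatives were RLE normalization, other filters, DESeq2 1.42.0, the exact test, no fold threshold, a replicate block, other libraries in the fit and leaving out each library.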

Additional observations from a re-analysis of the deposited data

How the results depend on the processing

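With the 31 loci kept, the number called in Groups A, B and the interaction was 0 under every alternative run, except for 1 in Group B with DESeq2. Without each library in turn, 13 to 19 loci were called lower in Group C, beside 36 to 259 of all features. In Group D it was 13 to 20 loci, beside 40 to 234 of all features. The choice used these contrasts, so these counts only describe the loci. The medians in the same fits ran from -1.795 to -1.591 in Group C, -2.065 to -1.62 in Group D and -0.037 to 0.048 in Group A. In Group B they ran from -0.076 to 0.010, and in the interaction from 0.018 to 0.084. The choice itself gave 34 to 63 loci without each library in turn, 229 without the overlap criterion, 25 at a ratio of 0.5, 34 and 26 at a WT mean of 0.5 and 2 CPM, and 40 on CPM scaled by TMM, with all 31 among those 40. Loci chosen in MS and called lower in ABA numbered 9 to 20 without each tested library in turn, beside 201 to 372 of all features. They numbered 46 when the choice left out WT MS replicate 3 (added after seeing the data). Loci chosen in ABA and called lower in MS numbered 1 to 16 without each tested library in turn, beside 9 to 90 of all features. They numbered 29 with DESeq2, 26 with the exact test and 4 with the replicate block, beside 168, 137 and 12 of all features. In both of these tests, leaving out a WT library also kept the loci at 0 in mop1-1 from passing the filter. The medians near 0 crossed it, by less than the spread between replicates, in Group A (also with RLE normalization, DESeq2 and the replicate block) and, without WT ABA replicate 1, in Group B. Among the values of the loci named, the one that reversed was the MSTRG.8350 log2 fold change in Group A, which ran from -0.0796 without mop1-1 ABA replicate 3 to 0.519 without mop1-1 MS replicate 2. The cause was not tested.

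Replicate numbers did not pair the libraries, since deviations of same-numbered libraries correlated at -0.162 to 0.0877 and those of different numbers at -0.207 to 0.164. With the replicate block, 14 of the loci were called lower in Group C and 14 in Group D, beside 80 and 48 of all features. None was called in Group A, Group B or the interaction. Depth limits the bounds of the 8 loci at 0, and the spread between replicates limits the rest.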
